A study of Mus musculus with 9 samples.

Results

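The Ctla4 and Icos interval is a window of 250 kb on mouse chromosome 1 of the mm8 build, in which the binding of Stat5b and Stat5a was followed through Th2 differentiation by chromatin immunoprecipitation and sequencing (ChIP-seq). The window was chosen by its reads in these same libraries, so every level and ratio in it is a description of those libraries. Joining the overlapping peaks of the 6 deposited lists gave 43771 regions in the genome, and 30 of them lie in the window. They are numbered here by position, from region 1 (chr1:60852144-60852337) to region 30, and together cover 21.3 kb. The outstanding one, region 21 (chr1:60990082-60991533), ranked 6 at 8 h, 8 at 13 h and 13 after 2 rounds among all 43771 regions by reads above IgG, averaged over both antibodies.

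Ctla4 and Icos encode T cell surface receptors of the CD28 family. CTLA-4 is an inhibitory receptor that competes with CD28 for the B7 ligands on antigen-presenting cells, and it is abundant in activated and regulatory T cells. ICOS is a costimulatory receptor that appears on T cells after activation, binds ICOS ligand and supports helper T cell responses. Stat5a and Stat5b are closely related transcription factors that are phosphorylated by Janus kinases downstream of IL-2 and other cytokines, form dimers and bind DNA at palindromic TTCNNNGAA elements. In the gene order of the GRCm38.p6 annotation, Ctla4 and Icos are neighbours, with Cd28, the founding costimulatory receptor of the family, and Raph1 on one side and Pard3b and Nrp2 on the other.

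The libraries came from mouse CD4+ T cells in Th2 differentiation, sampled after 8 h, 13 h and 2 rounds of it, the course by which they become IL-4 producing helper cells. At each stage there is 1 Stat5b library, 1 Stat5a library and 1 control library made with IgG, 9 in all, and the labels give no strain or age and refer to a publication, not used here, for growth and treatment. With 1 library per group there are no replicates, so each comparison is between libraries and not between conditions, and no p-value is given. Depth lay between 3130228 reads (Stat5a at 8 h) and 9036070 reads (Stat5b at 13 h). Of the reads of a library, 61.0% to 74.1% differed in start or strand. Levels are given as RPM, the reads whose 5′ end fell in a region per 1000000 mapped reads of the library. A ratio of 2 libraries carries an exact conditional (Clopper-Pearson) 95% interval in parentheses. A region is called higher when this interval lies wholly above 2, and lower when it lies wholly below 0.5. The intervals cover counting error only, since no molecular identifiers tell PCR copies from separate molecules, and they are not adjusted for the number of regions. Where the lower library of a ratio had 0 reads, its count was set to a floor of 3 reads. The fold given there uses that floor and is not a limit of the interval, which can reach below it.

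The regions could not be placed in exons, introns or promoters, because positions of genes in mm8 were not used here, and positions of different builds cannot be set against each other. Only the promoter of Ctla4 was matched, 1 of 2 members, from RefSeq in the GRCm38.p6 build (chr1:60908775-60909024 of that build, plus strand). Its 250 bases before the transcription start are shown as the sequence that a peak at the Ctla4 start would cover, and whether any of the 30 regions covers it was not tested. Capitals would mark the element TTCNNNGAA, which reads the same on both strands. The sequence has 0 matches and is therefore all in lower case, and 7.02% of 32851 promoters of the same 250 bases have a match.
Ctla4 promoter: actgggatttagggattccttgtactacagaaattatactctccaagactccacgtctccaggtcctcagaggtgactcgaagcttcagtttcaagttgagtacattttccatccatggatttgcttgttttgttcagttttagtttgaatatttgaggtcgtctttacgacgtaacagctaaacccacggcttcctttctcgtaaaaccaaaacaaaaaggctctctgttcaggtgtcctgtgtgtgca

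Peaks of the 6 lists were spread through most of the window, in groups separated by long stretches without any. Stat5b had 12 deposited peaks there at 8 h, 23 at 13 h and 24 after 2 rounds, and Stat5a had 14, 18 and 16. The whole lists hold 3990, 13268 and 33692 Stat5b peaks and 5585, 14302 and 9791 Stat5a peaks. The window thus held 0.301%, 0.173% and 0.0712% of the Stat5b lists, a falling share, and 0.251%, 0.126% and 0.163% of the Stat5a lists. Counted as regions, Stat5b peaks lay in 8, 20 and 20 of the 30, and Stat5a peaks in 14 at each stage. The lists give positions only, with no height or score. A run of 5 regions, region 21 to region 25, spans 17.3 kb, with a gap of 9.71 kb before it and of 39.5 kb after it. A stretch of 32.3 kb without peaks separates region 8 from region 9, and one of 30.9 kb separates region 15 from region 16. Region 26 stands alone, 39.5 kb from the region before it and 32.2 kb from the one after it.

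Peaks of several lists coincided more often here than over the genome, as a description of a window chosen for its binding. At least 4 lists had a peak in 11 regions. All 6 lists had one in region 9, region 21, region 22 and region 30, that is in 13.3% of the regions of the window, against 2.63% of all 43771 regions. A peak at every stage, of either antibody, was found in 13 regions (43.3%), against 8.59% of all regions. A peak after 2 rounds only was found in 8 regions (26.7%), against 48.0% of all regions. Peaks at 13 h only marked 3 of the 30 regions, against 20.04% of all regions, and peaks at 8 h and 13 h marked 3, against 1.18%. Peaks at 13 h and 2 rounds marked 2 (6.67%, against 16.7%), and a peak at 8 h only marked region 13 alone (3.33%, against 3.55%). All 14 regions with a Stat5a peak at 8 h also had a Stat5b peak at 13 h, which is 100% of the first list and 70.0% of the second. After 2 rounds, 11 regions had a peak of both antibodies, 55.0% of the Stat5b regions and 78.6% of the Stat5a regions. The overlap of these pairs of lists over all regions is not given here, so it is not shown to be particular to the window.

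**Figure D1:**
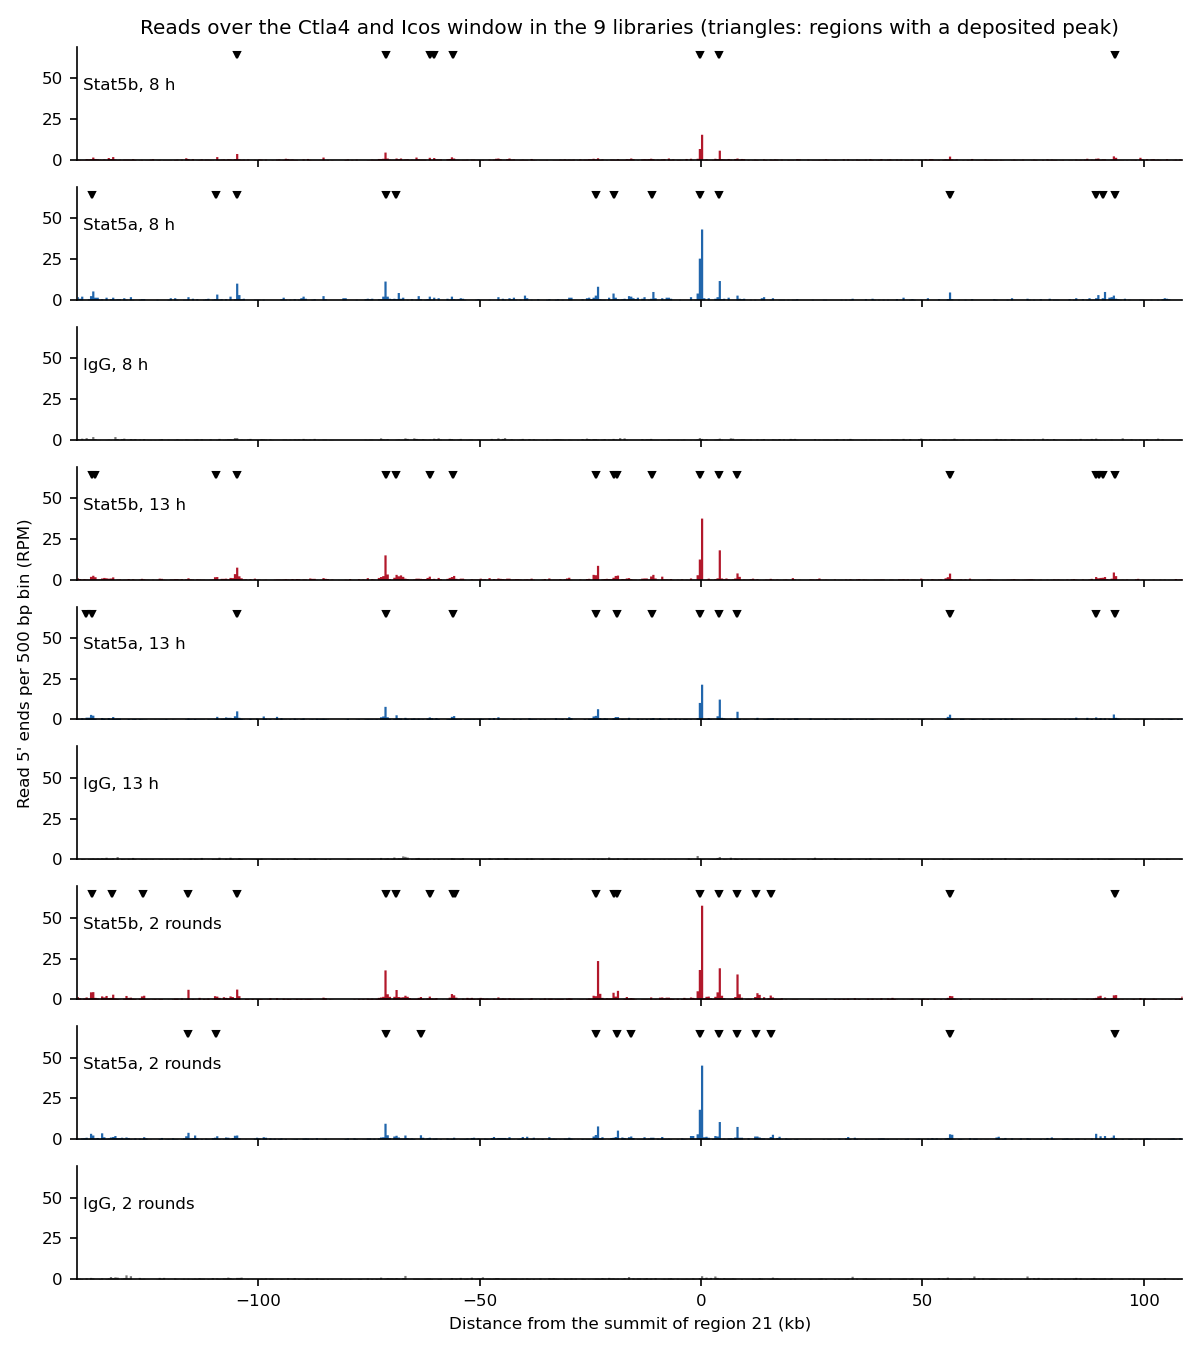
Read 5′ ends per 500 bp bin, in RPM (y axis, same scale in all panels), against the distance from the summit of region 21 in kb, for the 9 libraries; triangles mark regions with a deposited peak of that library. Region 21 stands out in all 6 ChIP libraries, with smaller columns in region 9 (69.4 kb before it), region 16 (21.7 kb before it) and region 22 and region 23 just after it, while the IgG libraries stay near 0 throughout.

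Region 21 held the most reads of the 30 regions in each of the 6 ChIP libraries. At 8 h, 13 h and 2 rounds it held 23.4, 53.3 and 81.0 RPM for Stat5b and 73.8, 33.3 and 66.96 RPM for Stat5a, against 2.56, 3.59 and 2.94 RPM for IgG. All 6 ChIP levels lie far above the 3 IgG levels, and among the ChIP libraries Stat5b was lowest at 8 h while Stat5a was lowest at 13 h. Over the IgG library of the same stage, Stat5b stood 9.15 (5.46 to 16.4) times higher at 8 h, 14.9 (10.1 to 22.8) at 13 h and 27.6 (17.1 to 47.6) after 2 rounds. Stat5a stood 28.8 (17.4 to 51.2), 9.29 (6.25 to 14.4) and 22.8 (14.1 to 39.5) times higher at the same stages. No single position held a large part of the reads, since the fullest start held between 1.77% and 3.46% of the ChIP reads of the region. Many starts were repeated, however. Counting 1 read per start and strand, the region had 124, 234 and 281 distinct starts for Stat5b, from 161, 482 and 620 reads. For Stat5a it had 127, 153 and 209, from 231, 277 and 445 reads.

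The 6 ChIP libraries placed the summit of region 21 at the same point. The summit is the point with the most distinct starts within 75 bp, after each start is moved 75 bp downstream. Its position ranged from 60991083 (Stat5a at 8 h) to 60991138 (Stat5b at 8 h and Stat5a at 13 h), a spread of 55 bp over 6 libraries. The median minus-strand start lay 21 to 112 bp downstream of the median plus-strand start in the 6 libraries, so plus-strand reads preceded minus-strand reads in each of them. Between 35.9% and 41.6% of the shifted starts lay within 75 bp of the summit. The other starts lay mostly before the summit, with further small columns on both strands.

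**Figure D2:**
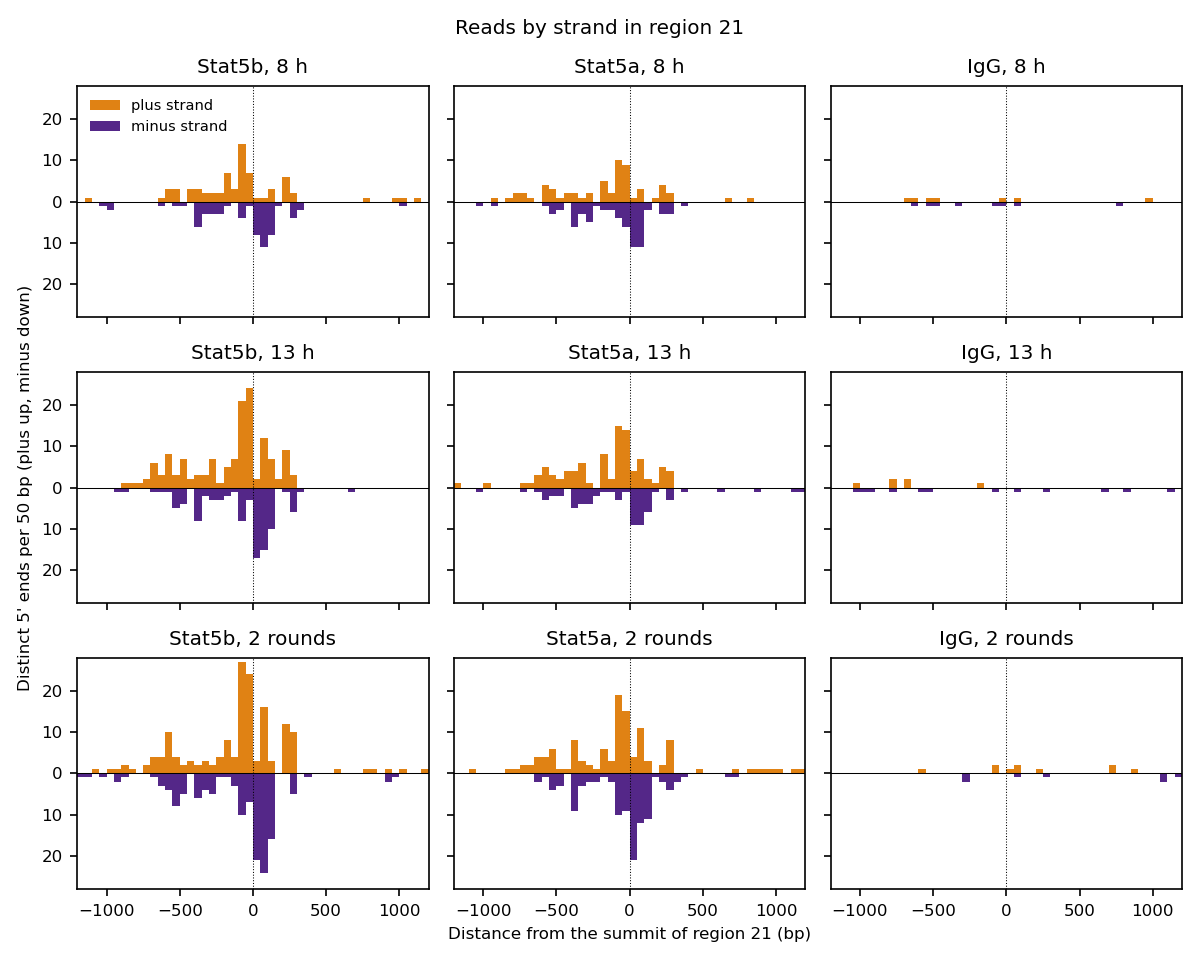
Distinct read 5′ ends in region 21 per 50 bp, plus strand up and minus strand down, against the distance from its summit in bp, for Stat5b, Stat5a and IgG (columns) at 8 h, 13 h and 2 rounds (rows). In the 6 ChIP libraries plus-strand ends crowd just before the summit and minus-strand ends just after it, and the 3 IgG libraries have scattered starts, at most 2 per strand and step of 50 bp.

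The Stat5b level of region 21 was higher at each later stage. It was 2.28 (1.90 to 2.74) times higher at 13 h than at 8 h, 1.52 (1.35 to 1.71) times higher after 2 rounds than at 13 h, and 3.45 (2.90 to 4.13) times higher after 2 rounds than at 8 h, of which the last was called. On distinct starts, with 1 read per start and strand, the last ratio was 2.34 (1.89 to 2.91) and was not called. Over the regions with reads in both libraries, the median Stat5b ratio of 2 rounds over 8 h was 4.82, above the ratio of region 21. Of all regions, 48.0% had a peak after 2 rounds only, which favours a high median. Scaled to that median, its ratio was 0.716 (0.601 to 0.857), and scaled to the other regions of the window, a choice made after seeing the data, it was 0.973 (0.817 to 1.16). Median scaling gave 1.198 for 13 h over 8 h and 0.589 for 2 rounds over 13 h, so the order of the later stages depends on the scaling. Its rank by Stat5b reads above IgG was 10 at 8 h, 7 at 13 h and 30 after 2 rounds.

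The Stat5a level of region 21 followed another course. It was 0.452 (0.378 to 0.540) times that of 8 h at 13 h, 2.01 (1.73 to 2.34) times that of 13 h after 2 rounds, and 0.907 (0.772 to 1.07) times that of 8 h after 2 rounds. None of the 3 ratios was called, though the first interval lies wholly below 1 and the second wholly above it. The Stat5a library of 13 h mixes reads of 24 bp and 25 bp, and these differed in region 21, with 13.6 RPM in the 24 bp reads and 45.4 RPM in the 25 bp reads, a ratio whose interval was 0.211 to 0.417. In 25 bp reads alone, the ratio of 13 h over 8 h was 0.615 (0.511 to 0.741). The IgG library of 13 h, mixed in the same way, had 1.61 RPM in 24 bp and 5.54 RPM in 25 bp reads. The part of read length in the Stat5a course was not tested. The Stat5a library of 2 rounds, also mixed, had 63.8 RPM in 24 bp and 70.8 RPM in 25 bp reads, a ratio of 0.902 (0.745 to 1.09). By Stat5a reads above IgG, region 21 ranked 6, 9 and 6 at the 3 stages.

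Region 9, region 22 and region 16 came next after region 21 by their levels after 2 rounds. Region 9 (chr1:60919168-60920680) held 6.41, 21.03 and 23.4 RPM for Stat5b, 13.7, 11.6 and 13.8 RPM for Stat5a and 1.12, 1.99 and 1.56 RPM for IgG at 8 h, 13 h and 2 rounds. Region 22 (chr1:60994745-60995771), which begins 3.21 kb after region 21, held 6.84, 20.03 and 24.2 RPM for Stat5b, 14.4, 15.0 and 12.8 RPM for Stat5a and 1.44, 2.13 and 1.38 RPM for IgG. In both, Stat5b was lowest at 8 h and close together at the later stages, the Stat5a levels all lay between 11.6 and 15.0 RPM, and every ChIP level exceeded the IgG level of its stage. The Stat5b ratio of 13 h over 8 h was 3.28 (2.35 to 4.67) in region 9 and 2.93 (2.11 to 4.12) in region 22, both called, whereas on distinct starts neither was. The Stat5a ratio of 2 rounds over 8 h was 1.008 (0.694 to 1.48) in region 9 and 0.890 (0.613 to 1.31) in region 22. Summits lay within 62 bp of each other over 6 libraries in region 9 and within 189 bp in region 22, with plus-strand starts ahead of minus-strand starts in 6 of 6 libraries.

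Region 16 (chr1:60966625-60968388) had the largest Stat5b ratio of 2 rounds over 8 h of these 3 and region 21. It held 3.20, 14.6 and 31.5 RPM for Stat5b, 12.8, 12.0 and 13.4 RPM for Stat5a and 1.60, 1.59 and 1.56 RPM for IgG. The Stat5b list of 8 h had no peak there, and its Stat5b level after 2 rounds was second only to region 21. The Stat5b ratio was 4.56 (2.89 to 7.52) for 13 h over 8 h and 9.82 (6.34 to 15.97) for 2 rounds over 8 h, and both calls held on distinct starts. Stat5a had a ratio of 1.05 (0.714 to 1.56) for 2 rounds over 8 h. The region joins neighbouring deposited peaks, and the Stat5b reads of the later stages lay mostly in the second of them. The Stat5b peaks of 13 h divide it into a first part (60966625 to 60967183) with 1.31, 3.87 and 2.74 RPM of Stat5b at the 3 stages and a second part (60967283 to 60967948) with 1.31, 10.5 and 24.3 RPM. Stat5a had 2.56, 3.25 and 2.71 RPM in the first part and 9.58, 6.62 and 9.03 RPM in the second. In the 5 libraries with enough starts, the summit lay in the second part, within 69 bp.

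Region 8, region 26 and region 30 also had peaks in at least 5 lists, but no called stage change. Region 8 (chr1:60885590-60886873) held 4.81, 13.4 and 9.01 RPM for Stat5b, 13.4, 8.78 and 5.42 RPM for Stat5a and 2.72, 1.46 and 2.25 RPM for IgG, and had no Stat5a peak after 2 rounds. Its Stat5b level was highest at 13 h, while its Stat5a level was lower at each later stage. Stat5a after 2 rounds was 0.404 (0.251 to 0.646) times that of 8 h, and Stat5b was 1.88 (1.22 to 2.93) times that of 8 h, neither of them called. IgG was comparatively high in region 8, and at 8 h the Stat5b ratio to IgG was only 1.76 (0.955 to 3.38). All 6 ChIP libraries placed the summit of region 8 within 59 bp.

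Region 26 (chr1:61046830-61048009) held 3.20, 6.09 and 5.62 RPM for Stat5b, 6.07, 5.17 and 7.07 RPM for Stat5a and 0.481, 1.06 and 0.518 RPM for IgG. Its ChIP levels ranged from 3.20 to 7.07 RPM, and the place of its summit differed between libraries. The summit of both antibodies at 13 h lay at 61047099 and 61047105, that of Stat5b after 2 rounds at 61047083, and that of Stat5a after 2 rounds at 61047653. The last had only 6 of 22 distinct starts within 75 bp. In the Stat5a peak of 2 rounds (61047537 to 61047814), Stat5a had 0.639, 0.722 and 2.56 RPM at the 3 stages and Stat5b had 0.582, 0.443 and 1.44 RPM. These rest on 2 to 17 reads each, and the choice of that peak favours the Stat5a level of 2 rounds. In the Stat5a peak of 13 h (61046830 to 61047350), Stat5a had 4.47, 3.97 and 3.91 RPM and Stat5b had 2.18, 5.09 and 2.74 RPM. Region 30 (chr1:61084157-61085065), the last of the window, held 3.93, 6.64 and 5.62 RPM for Stat5b, 3.83, 4.69 and 3.01 RPM for Stat5a and 0, 0.532 and 0 RPM for IgG. IgG libraries of 2 stages had 0 reads. With IgG set to the floor of 3 reads, Stat5b in region 30 was 8.18-fold higher at 8 h and 10.8-fold higher after 2 rounds. Its highest ChIP level was 6.64 RPM and its lowest 3.01 RPM, the narrowest range of the 4 regions found in all lists, and 4 libraries with enough starts placed its summit within 16 bp.

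**Figure D3:**
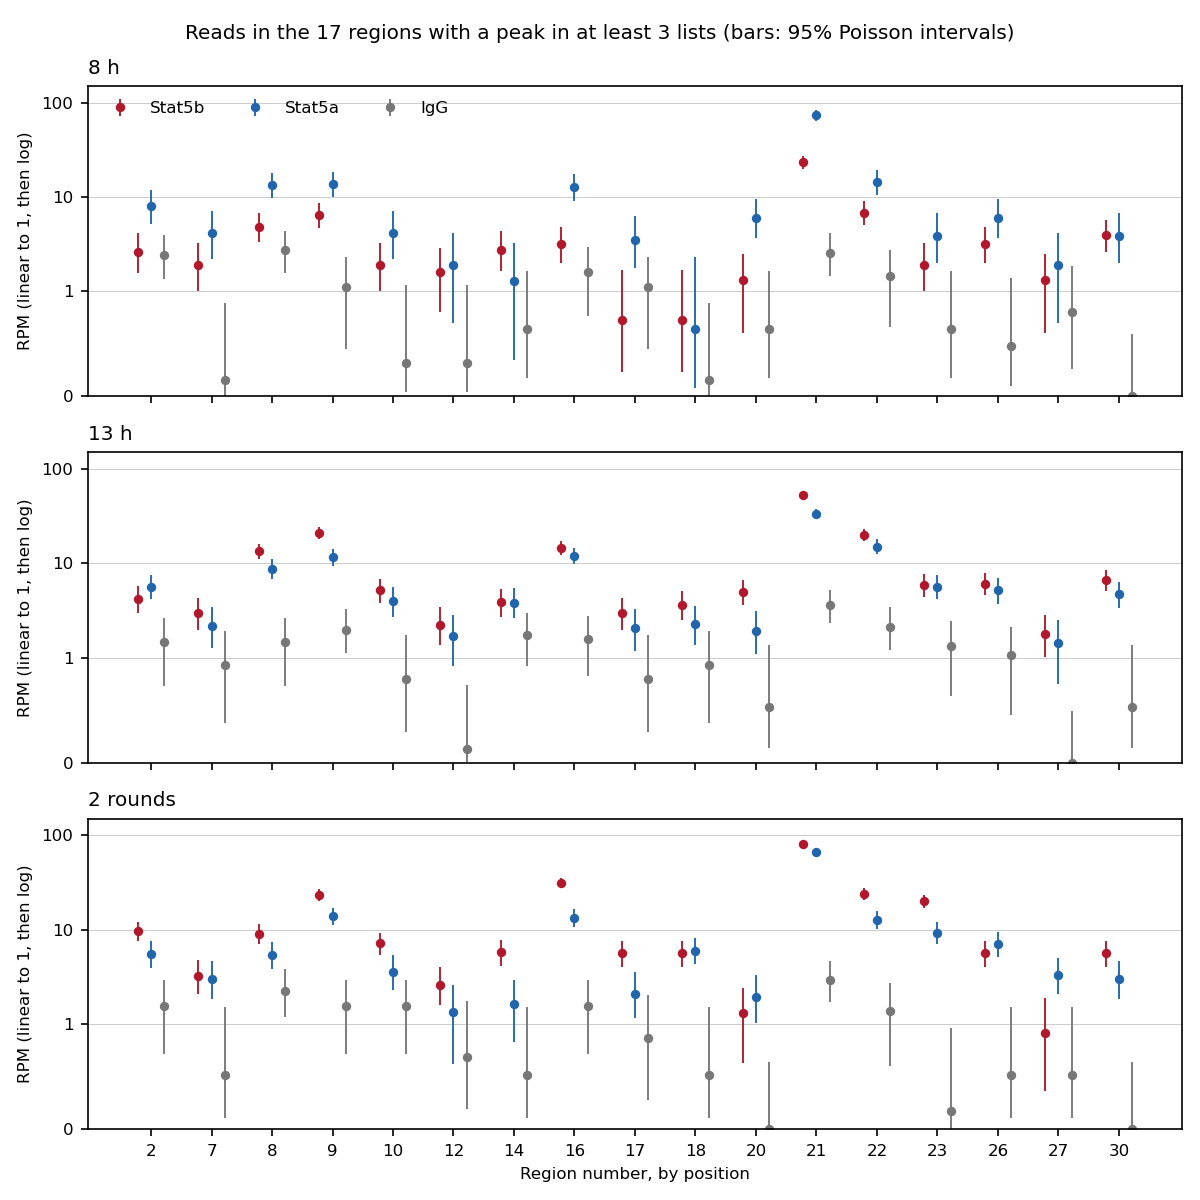
RPM (y axis, linear to 1 and logarithmic above) of Stat5b, Stat5a and IgG in the 17 regions with a peak in at least 3 lists, by position, at 8 h, 13 h and 2 rounds; bars are 95% Poisson intervals of 1 library each. Region 21 lies highest in every panel, and Stat5b lies below Stat5a in most regions at 8 h and above it in most after 2 rounds.

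Several regions had low Stat5b levels at 8 h and were called higher after 2 rounds. Region 23 (chr1:60998708-60999803), 7.17 kb after region 21, held 1.89, 5.87 and 19.98 RPM for Stat5b, 3.83, 5.66 and 9.33 RPM for Stat5a and 0.641, 1.33 and 0.173 RPM for IgG. Stat5b there was lowest at 8 h and highest after 2 rounds, and neither list of 8 h had a peak there. Its Stat5b ratio was 3.41 (2.48 to 4.75) for 2 rounds over 13 h and 10.6 (5.99 to 20.3) for 2 rounds over 8 h. Both calls held on distinct starts, and Stat5a had a ratio of 2.43 (1.30 to 4.96) for 2 rounds over 8 h, not called. Region 24 (chr1:61003218-61003845) held 0.437, 0.553 and 5.22 RPM for Stat5b, 0.319, 1.68 and 3.16 RPM for Stat5a and 0, 0.133 and 0.518 RPM for IgG. Peaks of both antibodies were deposited there after 2 rounds only, and the Stat5b ratio of 2 rounds over 13 h was 9.44 (3.73 to 30.6). Region 24 is thus in the set only through the lists of 2 rounds, which favours a high level at that stage.

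Low levels before 2 rounds were also found at the other end of the window. Regions 4, 5 and 6 there are in the set only through lists of 2 rounds, which favours high levels at that stage. Region 6 (chr1:60874824-60875466) held 1.16, 1.33 and 6.14 RPM for Stat5b, 1.60, 1.203 and 4.97 RPM for Stat5a and 0.481, 0.399 and 0.518 RPM for IgG. It too had peaks of both antibodies after 2 rounds only, and its Stat5b ratio of 2 rounds over 13 h was 4.62 (2.41 to 9.57). Region 5 (chr1:60864847-60865390) held 0.291, 0.996 and 3.40 RPM for Stat5b, 0.958, 0.241 and 1.505 RPM for Stat5a and 0.641, 0.266 and 0.518 RPM for IgG. A Stat5b peak after 2 rounds was its only one, and the Stat5b ratio of 2 rounds over 8 h was 11.7 (2.92 to 101), from 26 reads against 2. Region 4 (chr1:60857752-60858251), likewise with a Stat5b peak after 2 rounds only, held 1.75, 1.44 and 3.79 RPM for Stat5b, 1.92, 2.17 and 1.505 RPM for Stat5a and 0, 1.06 and 0.346 RPM for IgG, and no stage ratio of it was called. Region 2 (chr1:60853199-60854148) held 2.62, 4.21 and 9.66 RPM for Stat5b, 7.99, 5.66 and 5.57 RPM for Stat5a and 2.40, 1.46 and 1.56 RPM for IgG. It was called for Stat5b after 2 rounds over 8 h, at 3.69 (2.18 to 6.56), a call that was lost on distinct starts, and IgG in it was among the highest of the window.

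The pair formed by region 17 and region 18, 135 bp apart and 18.4 and 17.6 kb before region 21, was also higher for Stat5b after 2 rounds than at 8 h. Region 17 (chr1:60971167-60971729) held 0.728, 2.99 and 5.62 RPM for Stat5b, 3.51, 2.05 and 2.11 RPM for Stat5a and 1.12, 0.797 and 0.864 RPM for IgG. Region 18 (chr1:60971865-60972477) held 0.728, 3.65 and 5.62 RPM for Stat5b, 0.639, 2.29 and 6.02 RPM for Stat5a and 0.160, 0.9302 and 0.518 RPM for IgG. The Stat5b ratio of 2 rounds over 8 h was 7.71 (3.06 to 24.95) in both, from 43 reads against 5 in each. Stat5a had a ratio of 2 rounds over 8 h of 0.5995 (0.253 to 1.46) in region 17 and 9.42 (2.44 to 80.5) in region 18. On distinct starts none of these calls held. Region 10 (chr1:60921888-60922705), 1.21 kb after region 9, held 1.89, 5.20 and 7.18 RPM for Stat5b, 4.15, 3.97 and 3.61 RPM for Stat5a and 0.320, 0.797 and 1.56 RPM for IgG, and its Stat5b ratio of 2 rounds over 8 h, 3.79 (2.05 to 7.57), was called on all reads only.

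Region 20 had its highest levels before 2 rounds. Region 20 (chr1:60979703-60980371), the nearest before region 21, held 1.31, 4.98 and 1.31 RPM for Stat5b, 6.07, 1.93 and 1.96 RPM for Stat5a and 0.641, 0.532 and 0 RPM for IgG, with peaks of Stat5a at 8 h and of both antibodies at 13 h. Stat5a was highest at 8 h and Stat5b at 13 h, and each was low at the other stages. The Stat5b ratio was 3.80 (1.83 to 8.84) for 13 h over 8 h and 0.262 (0.118 to 0.528) for 2 rounds over 13 h. The Stat5a ratio was 0.317 (0.153 to 0.651) for 13 h over 8 h. No interval passed the thresholds, and the ChIP levels rest on 9 to 45 reads each.

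The other regions with peaks in 3 or 4 lists had no called change. Region 7 (chr1:60881342-60881868) held 1.89, 2.99 and 3.27 RPM for Stat5b, 4.15, 2.17 and 3.01 RPM for Stat5a and 0.160, 0.9302 and 0.518 RPM for IgG. Region 12 (chr1:60929581-60930111), where only Stat5b lists had peaks, held 1.60, 2.21 and 2.61 RPM for Stat5b, 1.92, 1.68 and 1.35 RPM for Stat5a and 0.320, 0.133 and 0.691 RPM for IgG. Region 14 (chr1:60934729-60935388) held 2.77, 3.87 and 5.75 RPM for Stat5b, 1.28, 3.85 and 1.66 RPM for Stat5a and 0.641, 1.73 and 0.518 RPM for IgG. Region 27 (chr1:61080222-61080609) held 1.31, 1.77 and 0.914 RPM for Stat5b, 1.92, 1.44 and 3.31 RPM for Stat5a and 0.801, 0 and 0.518 RPM for IgG. In these 4 regions no ChIP level passed 6 RPM. In region 27, a single start held 9 of the 22 Stat5a reads of 2 rounds, 40.9%, the highest share among regions with at least 20 reads in a library.

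A few calls rested on very few reads. Region 11 (chr1:60927658-60928020) had a Stat5a ratio of 14.4 (3.55 to 126) for 2 rounds over 13 h, from 23 reads against 2, and 8 of the 23 lay at 1 start. In Stat5b libraries it held 0.437, 0.775 and 1.70 RPM. Region 19 (chr1:60975099-60975428) had 11 Stat5a reads after 2 rounds, 0 at 13 h and 7 at 8 h. It was called both higher after 2 rounds than at 13 h and lower at 13 h than at 8 h. With 13 h set to the floor of 3 reads, the rise was 4.59-fold. Region 1 (chr1:60852144-60852337) had 0 Stat5b and 12 Stat5a reads at 13 h and was called lower for Stat5b. Region 11 and region 19 had a Stat5a peak after 2 rounds only, and region 1 a Stat5a peak at 13 h only. This favours the high levels in those libraries. Of these calls, the rise in region 19 was the only one to hold on distinct starts. The remaining 6 regions, numbers 3, 13, 15, 25, 28 and 29, held 0 to 4.79 RPM in the ChIP libraries and at most 31 reads in any of them.

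The regions of the window exceeded IgG more often than regions of the genome did, which their choice favours. At 8 h, 6 of the 30 were called higher for Stat5b, against 2.92% of all 43771 regions, and 13 for Stat5a, against 11.2%. At 13 h, 14 were called for Stat5b, against 17.5%, and 11 for Stat5a, against 13.9%. After 2 rounds, 19 were called for Stat5b, against 46.5%, and 12 for Stat5a, against 13.9%. On distinct starts the counts of called regions were 3, 10 and 13 for Stat5b, against 1.32%, 9.06% and 32.1% of all regions, and 9, 5 and 7 for Stat5a, against 5.12%, 3.74% and 6.51%. Region 21 and region 22 were called in all 6 libraries under both counts. None of the 30 was called lower than IgG. Scaled by the median ratio over all regions, 2 were called at each stage for Stat5b, and 3, 1 and 2 for Stat5a. The share of all regions called under this scaling is not given here, so these counts are not set against the genome.

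Between stages, called changes of Stat5b all went up when libraries were scaled by depth. At 13 h over 8 h, region 9, region 16 and region 22 were called higher, 3 of the 30, against 5.27% of all regions, and 0 lower, against 0.304%. After 2 rounds over 13 h, region 6, region 23 and region 24 were called higher, 3 of the 30, against 25.1% of all regions, and 0 lower, against 0.637%. After 2 rounds over 8 h, 12 were called higher, against 43.4%, and 0 lower, against 0.215%. These 12 are regions 2, 5, 6, 9, 10, 16, 17, 18, 21, 22, 23 and 24. Regions 5, 6 and 24 had peaks after 2 rounds only, which favours their calls. On distinct starts 6 of the 12 held, regions 5, 6, 9, 16, 23 and 24, against 31.0% of all regions. The median Stat5b log2 ratio of 2 rounds over 13 h was 0.59 in 28 regions with reads in both libraries, against 1.37 in 37088 regions of the genome. That of 13 h over 8 h was 1.19 in 29 regions, against 0.93 in 33852. The median of the window thus lay above that of all regions between 8 h and 13 h, and below it between 13 h and 2 rounds. A peak after 2 rounds only marked 48.0% of all regions and 26.7% of the 30, which favours a higher median over all regions at that stage. Scaled by the median ratio over all regions instead, 0 of the 30 were called higher for Stat5b in each of the 3 pairs, and 0, 5 and 3 were called lower for 13 h over 8 h, 2 rounds over 13 h and 2 rounds over 8 h. Shares of all regions under median scaling are not given here, so whether these counts differ from the genome cannot be told.

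Stat5a showed few called changes. At 13 h over 8 h, 0 of the 30 were called higher, against 0.286% of all regions, and region 19 lower, against 2.15%. After 2 rounds over 13 h, region 11 and region 19 were called higher, against 7.67%, and 0 lower, against 3.97%. After 2 rounds over 8 h, region 18 was called higher, against 3.73%, and 0 lower, against 1.91%. The median Stat5a log2 ratios were -0.23 for 13 h over 8 h, 0.14 for 2 rounds over 13 h and -0.15 for 2 rounds over 8 h, against -0.20, 0.32 and 0.14 over all regions. The IgG libraries, compared in the same way between stages, gave 0 called regions of the 30 in either direction.

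**Figure D4:**
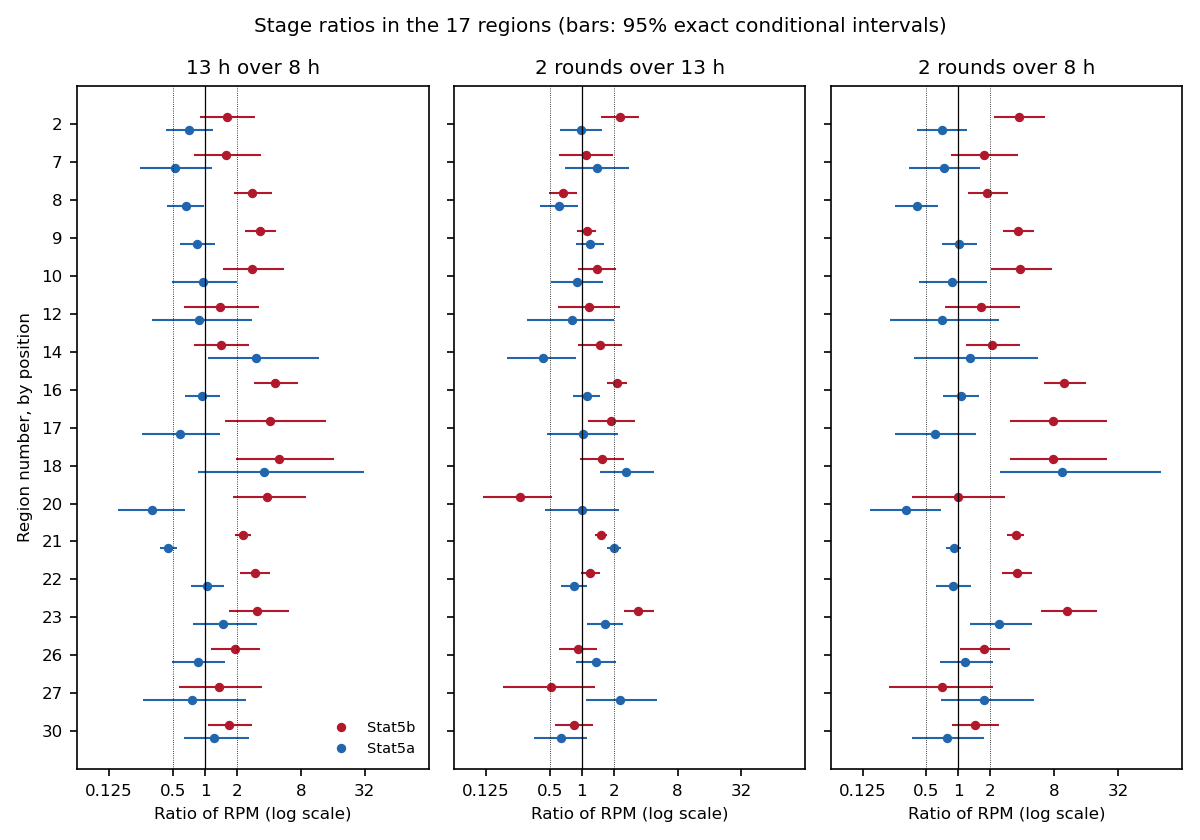
Ratios of RPM (x axis, log scale) between stages for Stat5b and Stat5a in the 17 regions with a peak in at least 3 lists (y axis, by position), with exact conditional 95% intervals; dotted lines mark 0.5 and 2. For 13 h over 8 h and for 2 rounds over 8 h, the Stat5b ratios lie to the right of the Stat5a ratios in most regions, and for 2 rounds over 13 h their intervals overlap in most.

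The order of the antibodies also differed between stages. Levels of different antibodies depend on how well each precipitates, so a ratio between them does not compare amounts of protein. At 8 h, Stat5b over Stat5a was 0.318 (0.258 to 0.390) in region 21 and 0.251 (0.142 to 0.432) in region 16, which were called lower, against 3.8% of all regions, and 0 were called higher, against 0.048%. On distinct starts neither call held. At 13 h the ratio in region 21 was 1.60 (1.38 to 1.86), and 0 of the 30 were called higher, against 2.08%, and region 1 lower, against 5.33%. After 2 rounds it was 1.21 (1.07 to 1.37) in region 21 and 2.35 (1.84 to 3.03) in region 16, and 0 were called higher, against 17.2%, and 0 lower, against 0.487%. The median ratio of the window was 0.456 at 8 h, 1.33 at 13 h and 1.65 after 2 rounds, against 0.547, 1.24 and 2.43 over all regions. At 8 h, region 15 and region 28 had 1 read in each of the 2 libraries, and equal counts give 0.456 through the difference in depth. Most regions had a ratio below 1 at 8 h, 24 of the 30, and the share over all regions is not given here. The others were region 14, at 2.17 (0.720 to 8.75), region 13, at 1.37 (0.245 to 13.9), region 24, at 1.37 (0.110 to 71.8), region 18, at 1.14 (0.187 to 12.0), region 1, with 2 Stat5b reads and 0 Stat5a reads, and region 30, at 1.03 (0.502 to 2.22).

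Summed over the 30 regions, Stat5b was lowest at 8 h and Stat5a at 13 h. Stat5b had 77.5, 186 and 273 RPM at 8 h, 13 h and 2 rounds, Stat5a had 190.1, 133 and 185 RPM, and IgG had 19.7, 24.5 and 22.1 RPM. Without region 21, the other 29 regions had 54.0, 133 and 192 RPM for Stat5b and 116, 99.4 and 118 RPM for Stat5a. Their Stat5a ratio of 13 h over 8 h was 0.855 (0.755 to 0.970), against 0.452 in region 21 and a median of 0.869 over all regions. Over IgG of the stage, the sums over all 30 regions were 3.93, 7.63 and 12.3 times higher for Stat5b and 9.64, 5.43 and 8.36 times for Stat5a. The 24 bp reads of Stat5a at 13 h had 75.4 RPM and its 25 bp reads 168 RPM in these regions, a ratio of 0.449 (0.388 to 0.519). Outside the regions, the rest of the window held 0.624 to 0.936 RPM per kb in the ChIP libraries and 0.507 to 0.706 RPM per kb in IgG. IgG itself was denser in the regions than outside, at 0.924 to 1.15 RPM per kb.

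Region 21 took a large part of these reads. Its share of the reads in the 30 regions was 30.3%, 28.6% and 29.7% for Stat5b and 38.8%, 25.1% and 36.2% for Stat5a, against 13.0%, 14.7% and 13.3% for IgG. The Stat5b shares lay within 28.6% to 30.3%, and the Stat5a share was lowest at 13 h, with Wilson 95% intervals of 35.0% to 42.8% at 8 h, 22.6% to 27.8% at 13 h and 33.6% to 38.9% after 2 rounds. The run from region 21 to region 25 held 43.0%, 43.3% and 49.2% for Stat5b and 49.4%, 43.3% and 52.4% for Stat5a, against 25.2%, 31.0% and 28.9% for IgG. The run was marked out after its reads were seen.

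**Figure D5:**
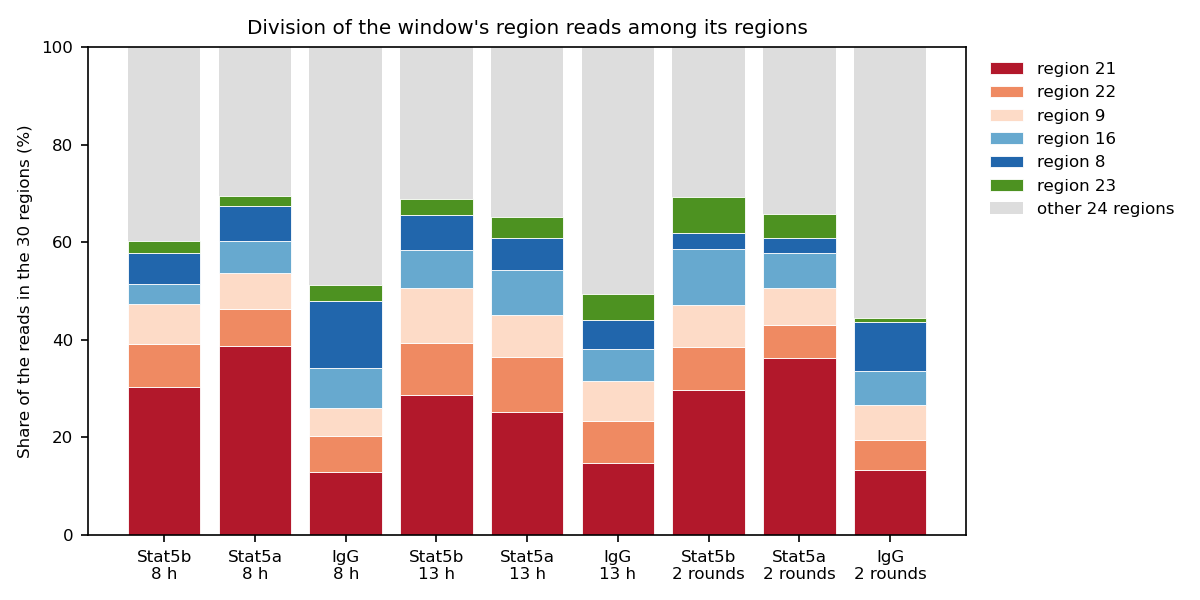
Share of the reads in the 30 regions (y axis, %) that fell in each of 6 named regions and in the other 24, for each library, with Stat5b, Stat5a and IgG in turn at 8 h, 13 h and 2 rounds. Region 21 takes 25.1% to 38.8% in the ChIP libraries and 13.0% to 14.7% in IgG.

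Reads were also counted in fixed bins of 500 bp, without using the lists. The bins and the lists belong to the same libraries, so called bins that touch regions are not an independent check. The window has 500 such bins, of which 66 touch a region and 434 do not. Bins called higher than IgG numbered 8, 22 and 24 for Stat5b at 8 h, 13 h and 2 rounds, of which 8, 20 and 23 touch a region, against 0.11%, 0.403% and 0.717% of all bins with reads. For Stat5a they numbered 18, 18 and 18, of which 16, 15 and 16 touch a region, against 0.661%, 0.385% and 0.355%. On distinct starts, all called bins but 1 touch a region. That bin, chr1:60974501-60975000, lies just before region 19 and held 6 distinct starts of Stat5a against 0 of IgG at 8 h. The fullest bin of the window, chr1:60991001-60991500 in region 21, held 108, 341 and 442 Stat5b reads, 136, 180 and 302 Stat5a reads and 5, 3 and 12 IgG reads at the 3 stages.

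The regions of the genome most like region 21 were looked for by the distance in log2(RPM + 0.5) over the 6 ChIP libraries. The nearest was chr9:107190761-107194586, at a distance of 0.98, with 24.3, 51.1 and 109 RPM for Stat5b and 47.6, 36.7 and 44.2 RPM for Stat5a. It was followed by chr8:84398358-84399721, chr6:124715655-124716745 and chr9:107170141-107172446, at 1.26, 1.35 and 1.45. All of these were in all 6 lists and had Stat5a lower at 13 h than at 8 h and Stat5b higher at each later stage. Their choice by these same levels favours a shared course. The fifth, chr11:3059279-3061882, was in 1 list and had 45.3, 40.9 and 33.0 RPM in IgG. Its directions were the same, with Stat5a at 45.0 RPM at 8 h and 43.3 RPM at 13 h, and Stat5b at 47.0, 51.8 and 55.1 RPM. IgG in region 21 lay between 2.56 and 3.59 RPM.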

How the data were processed

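Per the labels, the 9 ChIP-seq libraries of the series come from 22 lanes. The read files give the deposited start and end positions of each mapped read in mm8 with its strand, 1 line per read, and the 6 peak files give the deposited start and end positions of each peak without any value per peak. How reads were aligned and peaks called, and whether IgG was used, is not given in the sources used here. In 4 libraries, reads of 24 bp were moved by 1 bp, an offset that is clear only in Stat5a at 13 h (14.3% of 25 bp starts recur there, against 0.522% to 0.650% in the other 3). Peaks of the 6 lists that overlapped were joined into regions, reads were counted by their 5′ end, and libraries were scaled to their total reads. Ratios were computed over all 43771 regions with exact conditional intervals, 18 comparisons in all. The rule for calls was also tested on simulated data. The members, the window, the lists and the tests were chosen with earlier results of these data known. Regions named with values are the 17 with a peak in at least 3 lists, those called between stages or antibodies, and the 2 single-list regions with the most reads, 24 in all. Summits needed at least 20 distinct starts. The position of peaks relative to genes and the sequences of peaks are not analysed here, since no mm8 annotation or genome was used. No RNA was measured, so the labelled cell type could not be checked by its markers. The work used scipy 1.17.1 and pandas 2.3.3, with numpy 2.4.6, under Python 3.11.15; figures were drawn with matplotlib 3.10.9.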

Additional observations from a re-analysis of the deposited data

Results flagged for a closer look

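In 4 of the 30 regions Stat5a was lower and Stat5b higher at a later stage, with the intervals of the ratios on opposite sides of 1, and the difference itself was not tested. Over all regions, the median Stat5b ratio was 2.19 times the median Stat5a ratio for 13 h over 8 h (1.90 and 0.869). For 2 rounds over 8 h it was 4.39 times (4.82 and 1.10), so part of each contrast is found in these medians too. After 2 rounds the Stat5b list holds 33692 peaks and the Stat5a list 9791, which favours the second contrast of medians. In region 21 at 13 h over 8 h, the Stat5b ratio of 2.28 (1.90 to 2.74) was 5.04 times the Stat5a ratio of 0.452 (0.378 to 0.540), and on distinct starts 3.58 times, with intervals still on opposite sides of 1. The 24 bp and 25 bp reads of the Stat5a library of 13 h differ there. They also differ over all 30 regions together, with a ratio of 0.449 (0.388 to 0.519), and the contrasts at 13 h below use the same library. Region 29 (chr1:61081692-61082344) had peaks only in the lists of Stat5a at 8 h and Stat5b at 13 h, which favours such a contrast. For 13 h over 8 h, its Stat5b ratio of 2.85 (1.28 to 7.19), from 30 against 8 reads, was 14.2 times its Stat5a ratio. The latter was 0.201 (0.0738 to 0.505), from 8 against 15 reads. On distinct starts the contrast was 11.0 times, again with intervals on opposite sides of 1. In region 20 at 13 h over 8 h, the Stat5b ratio of 3.80 (1.83 to 8.84) was 12.0 times the Stat5a ratio of 0.317 (0.153 to 0.651). On distinct starts this fell to 6.16 times, and the Stat5a interval (0.215 to 1.15) reached past 1. In region 8, the Stat5b ratio of 2.79 (1.88 to 4.23) at 13 h over 8 h was 4.26 times the Stat5a ratio of 0.655 (0.442 to 0.981), and on distinct starts the Stat5a interval (0.362 to 1.06) also reached past 1. After 2 rounds over 8 h, its Stat5b ratio of 1.88 (1.22 to 2.93) was 4.64 times the Stat5a ratio of 0.404 (0.251 to 0.646), close to the contrast of the medians. Relative to those medians, both antibodies were lower in region 8 after 2 rounds, at 0.389 for Stat5b and 0.367 for Stat5a.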

How the results depend on the processing

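No paired analysis was possible because each group has 1 library. The excess of region 21 over IgG was called under each alternative run. Scaled by the median ratio over regions, region 21 turned from higher to 0.716 times for Stat5b after 2 rounds over 8 h, and scaled by the other regions of the window to 0.973, a choice made after seeing the data. On distinct starts it was 2.34, no longer called. Its Stat5b over Stat5a ratio at 8 h was no longer called on distinct starts (0.394), under median scaling (0.581) or scaled by the other regions (0.684). Counts of called regions depended on the setting, and the cause was not tested. Shares over all regions are not given beside the counts below, which describe the window only. Higher than IgG, in the order Stat5b at 8 h, 13 h and 2 rounds and then Stat5a, median scaling called 2, 2, 2, 3, 1 and 2 regions. Distinct starts called 3 for Stat5b at 8 h and 5 and 7 for Stat5a at 13 h and 2 rounds. Intervals wholly above 1 called 11 for Stat5b at 8 h and 18 and 20 for Stat5a at the later stages, and intervals wholly above 3 called 2, 9 and 12 for Stat5b and 6 for Stat5a at 13 h. Reads of 25 bp alone called 7 for Stat5b and 6 for Stat5a after 2 rounds, where IgG has few such reads. Bins of 500 bp called 22 for Stat5b and 18 for Stat5a at 13 h. Between stages, median scaling called 0 higher for Stat5b in each pair and 0, 5 and 3 lower for 13 h over 8 h, 2 rounds over 13 h and 2 rounds over 8 h. Scaling by the window's own regions, added after seeing the data, called 0, 1 and 0 higher and 0, 1 and 1 lower. Distinct starts called 1 and 6 higher for Stat5b at 13 h and 2 rounds over 8 h, and for Stat5a 0 lower at 13 h over 8 h and 1 and 0 higher after 2 rounds over 13 h and 8 h. Reads moved 75 bp called 1 lower for Stat5b after 2 rounds over 13 h and, for Stat5a, 2 lower at 13 h and 1 lower after 2 rounds over 8 h. Regions in at least 2 lists left 0 Stat5a calls for 13 h over 8 h and 2 rounds over 13 h, and 25 bp reads gave 2 higher for 2 rounds over 8 h. Bins called 6, 13 and 22 higher and 1, 2 and 0 lower for Stat5b, and 0, 10 and 1 higher and 5, 2 and 3 lower for Stat5a. For Stat5b over Stat5a, lower calls at 8 h were 0 on distinct starts, under median or window scaling, 4 with moved reads and 11 in bins. At 13 h they were 0 on distinct starts or in regions of at least 2 lists and 3 in bins, with 1 higher. After 2 rounds there were 2 lower under median scaling, 1 under window scaling and 2 in bins, with 2 higher there and 1 higher when scaled by reads outside regions. Of the joined peaks, 8, 14 and 12 Stat5b peaks overlapped Stat5a peaks at the 3 stages, and 1 at 8 h and 6 after 2 rounds by at least 50% of both. The upper 50% of a list by reads kept 7 of 11 joined Stat5b peaks at 8 h and 9 of 14 Stat5a peaks after 2 rounds. Regions of few reads, where the interval spans the thresholds, could not be called at this depth.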
